A study of Mus musculus with 22 samples.

Results

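The regions described here are control ATAC-seq peaks that were a single stretch in control retinal endothelial cells and lay in several separate stretches in gTKO cells. They were chosen from the peak lists themselves, as control peaks under 2000 bp on chromosomes 1 to 19 and X that overlapped 2 or more separate gTKO peaks by at least 1 bp. The rule found 2538 such regions among the 56297 control peaks under 2000 bp on these chromosomes, and the whole control list held 58311 peaks. They made up 6.22% of the 40831 such peaks that had any gTKO partner, and 4.51% of all control peaks under 2000 bp. Of the others, 38293 overlapped exactly 1 gTKO peak and 15466 overlapped none. The number of pieces chose the regions, so these counts and the values on pieces, gaps and edges below are descriptions without a test.

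ATAC-seq was carried out on endothelial cells sorted from retinas of C57BL/6 pups at postnatal day 6, with 3 libraries per genotype, each from the pooled retinas of 4 to 6 pups. Control pups were S1pr3-/- with floxed S1pr1 and S1pr2, and gTKO pups carried the same alleles with Rosa26-CreERT2, so S1pr3 was missing in both. Pups of both genotypes received 100 µg tamoxifen between postnatal days 1 and 3. Rosa26 is active in most cell types, so the recombinase was not limited to endothelium. The cell type entry of the labels calls the cells adult although the age entry gives pups, and this conflict was left as it stands. Only 1 peak list stands for each genotype, so no value below carries an error between replicates, and the genotypes are compared without p-values. Regions were not tied to genes, so the labelled cell type was not checked against endothelial markers.

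In ATAC-seq the transposase Tn5 inserts adapters into DNA that is not wrapped in nucleosomes, and stretches with many insertions are called as peaks. A broad peak commonly spans a promoter or enhancer with its flanks, and insertions within it rise and fall around positioned nucleosomes and bound factors. A peak caller extends a peak for as long as the signal stays over its threshold and starts another where the signal comes back, so a peak list records the width and the breaks of each accessible stretch. S1PR1, S1PR2 and S1PR3 are cell surface receptors that bind sphingosine 1-phosphate, a lipid of blood plasma, and S1PR1 is known for stabilising endothelial junctions and for restraining sprouting in the growing retinal vasculature.

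Most divided regions were in a pair of pieces. Of the 2538 regions, 2349 (92.6%, exact 95% Clopper-Pearson interval 91.5 to 93.5%) held 2 gTKO pieces, 170 (6.70%) held 3 and 19 (0.749%) held 4. These intervals, and all those below, cover counting error only and treat regions as independent. Regions with more pieces were wider, with a median width of 1034 bp for 2 pieces, 1448 bp for 3 and 1680 bp for 4. Wider regions have room for more pieces, so this order was partly fixed beforehand. The gTKO pieces covered a median of 80.1% of the control region (quartiles 69.8 and 88.1%), and 95.6% of the regions were covered over more than 50% of their width. Coverage ranged from 17.7% to 98.8%. In 918 regions (36.2%) a gTKO peak reached past an edge of the control region. In 156 regions (6.15%) a piece also overlapped a neighbouring control peak, so the breaks of the 2 lists interleaved there.

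The divided regions were wide for their list, and the share of divided peaks rose with width. Their median width was 1073 bp (quartiles 755 and 1438 bp), against 464 bp (270 and 818 bp) for control peaks with exactly 1 gTKO partner. Among control peaks with a partner, 0.233% of those of 150 to 299 bp were divided, 5.85% at 500 to 749 bp, 12.7% at 1000 to 1249 bp and 31.9% (95% interval 28.4 to 35.6%) at 1750 to 1999 bp. The share went up from each of the 8 width classes to the next. From 2000 bp upwards, outside the rule, 50.4% of 959 control peaks with a partner were in pieces. Because width and division went together, peaks with a single partner are compared below at the widths of the divided regions, by weighting them within width classes of 50 bp.

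**Figure D1:**
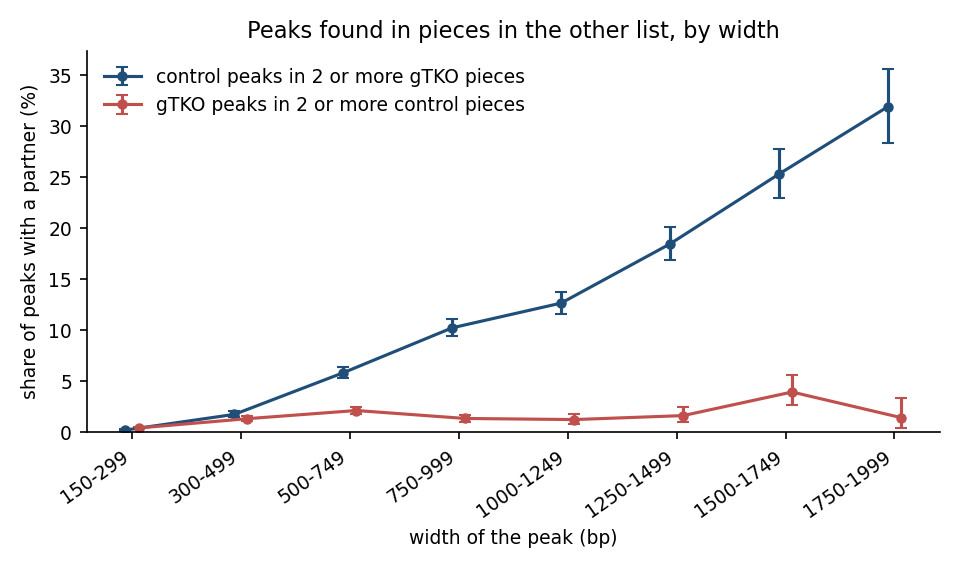
Share of peaks with a partner (%) that lay in 2 or more pieces in the other list, by width of the peak (bp), for control peaks in gTKO pieces (blue) and gTKO peaks in control pieces (red), with exact 95% intervals. The control share climbs from 0.233% to 31.9%, while the gTKO share stays between 0.435% and 3.96%.

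With the lists exchanged, the same rule found fewer regions. The control list as a whole was the more extensive, with 58311 peaks over 31.4 Mb and a median width of 359 bp. The gTKO list held 50178 peaks over 24.2 Mb with a median width of 337 bp. In the gTKO list 516 peaks under 2000 bp lay in 2 or more control pieces, 1.16% of the 44379 with a control partner, so divided control peaks were 4.92 times as numerous. The gTKO share did not climb steadily with width: it was 2.15% at 500 to 749 bp, 1.26% at 1000 to 1249 bp, 3.96% (95% interval 2.65 to 5.67%) at 1500 to 1749 bp and 1.45% (0.474 to 3.36%) at 1750 to 1999 bp. The divided gTKO peaks were also narrower, with a median width of 562.5 bp. Their control pieces covered a median of 90.8% of the peak, and their widest gaps had a median of 33 bp against 74 bp in the divided control peaks. The read depth behind each list is not known, so an effect of depth on where peaks break and an effect of genotype cannot be told apart. The direction depended on what counts as a break: joining gTKO peaks less than 150 bp apart, in that list alone, left 529 divided control peaks and turned the ratio to 0.510, while joining such peaks in both lists left 1039 and gave 9.53.

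Closely spaced gTKO peaks mostly lay under a single control peak, whereas closely spaced control peaks seldom lay under a single gTKO peak. The more extensive control list enters into this difference, and its part was not tested. Here pairs of neighbouring peaks in one list were taken by their gap, and a pair counted as joined if 1 peak of the other list, of any width, spanned the gap and overlapped both. Of 539 gTKO pairs separated by 11 to 19 bp, 464 (86.1%, 95% interval 82.9 to 88.9%) were joined in the control list. The joined share was 73.4% of 1209 gTKO pairs at 50 to 99 bp, 54.3% of 1033 at 100 to 149 bp, 24.8% of 1004 at 200 to 299 bp and 1.83% of 2562 at 500 to 999 bp. In the other direction, gTKO peaks joined 20.6% (17.8 to 23.6%) of 791 control pairs at 11 to 19 bp, 7.73% of 1526 at 50 to 99 bp and 0.552% of 1269 at 200 to 299 bp. In all 8 classes of gap the control list joined the larger share. A control peak under 2000 bp that joins 2 gTKO peaks is by definition a divided region, so these shares in part restate the counts above. With 1 list per genotype, the intervals cover counting error over pairs and are no test between genotypes.

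The regions with the most pieces show how the breaks were laid out. A 1986 bp control region of chromosome 14 (26374968 to 26376953, mm9) held 4 gTKO pieces of 166, 227, 185 and 776 bp, separated by gaps of 51, 301 and 208 bp. The pieces covered 68.2% of it, and 18 bp at its start and 54 bp at its end were uncovered. The region on chromosome 8 from 127471908 to 127473874 (1967 bp) was covered over 89.1% by 4 pieces, the last of them 1043 bp wide, and its gaps were 15, 57 and 102 bp. On chromosome 15 from 90508933 to 90510821 (1889 bp), the 4 pieces measured 303, 170, 667 and 395 bp. In these 3 regions the gTKO pieces reached within 92 bp of both ends, so most of the uncovered sequence lay inside.

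The other 7 regions of this group also held 4 pieces each, and some had longer uncovered ends. The region on chromosome 8 from 28088330 to 28090204 (1875 bp) was covered over 78.7%, with its last 171 bp uncovered, and its first piece was the last 32 bp of a gTKO peak that also overlapped the control peak 11 bp upstream. On chromosome 19 from 6398328 to 6400199 (1872 bp), 89.2% was covered and the widest gap was 144 bp. On chromosome 18 from 55150188 to 55152017 (1830 bp), 68.4% was covered and 287 bp separated the second piece from the next one. The region on chromosome 2 from 181404871 to 181406658 (1788 bp) was covered over 79.5%. The remaining regions of this group were covered over 63.4% (chromosome 1, 92951501 to 92953280, 1780 bp), 58.4% (chromosome 10, 94406260 to 94408035, 1776 bp, with 245 bp uncovered at its end) and 72.3% (chromosome 3, 89084521 to 89086200, 1680 bp). Across these 10 regions the widest gap ranged from 102 to 358 bp.

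**Figure D2:**
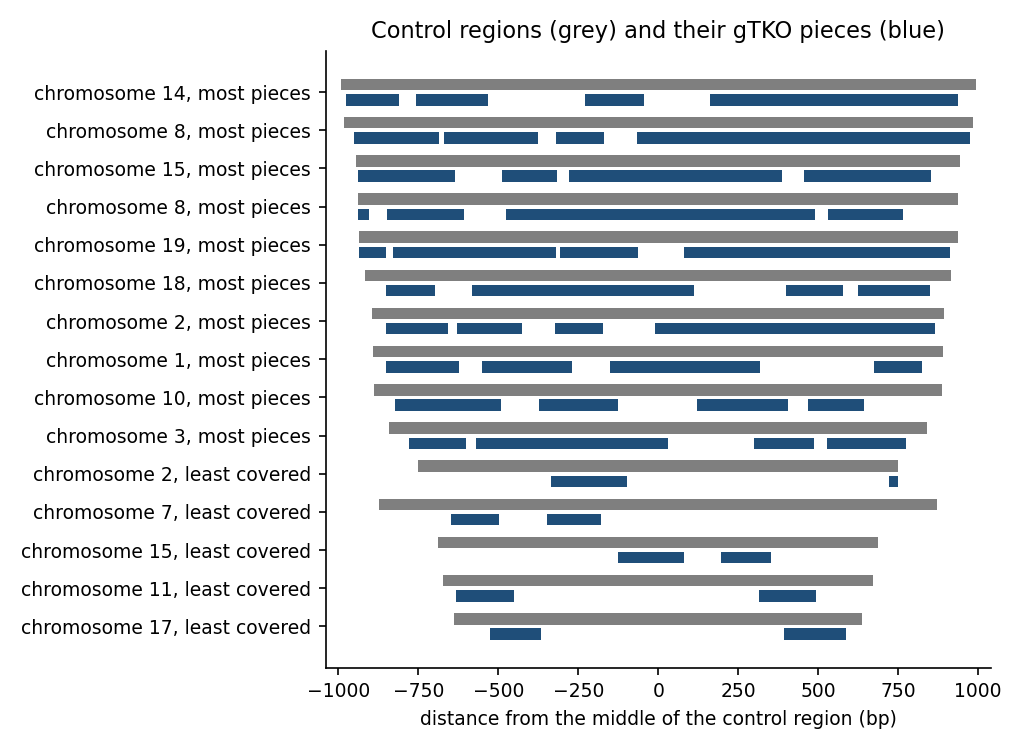
Control regions (grey) with their gTKO pieces (blue) drawn to scale against the distance from the middle of the control region (bp), for the 10 regions with the most pieces and the 5 with the lowest covered share. The first 10 are covered over 58.4% to 89.2% of their width and the last 5 over 17.7% to 27.5%.

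At the low end of coverage, only short pieces were called in gTKO cells. A 1500 bp control region of chromosome 2 (26443858 to 26445357) had 266 bp covered, 17.7% of its width, with 414 bp uncovered at its start and 820 bp between its pieces, the widest gap of all 2538 regions. Its second piece was the first 28 bp of a gTKO peak that reached on into the next control peak. On chromosome 7 from 52710138 to 52711883 (1746 bp), pieces of 150 and 169 bp lay in the first part and the last 1053 bp were uncovered. On chromosome 15 from 96515709 to 96517083 (1375 bp), the pieces of 206 and 156 bp lay in the middle, with 561 bp uncovered at the start and 336 bp at the end. The other 2 were uncovered mostly in the middle. In the 1344 bp region of chromosome 11 (50028786 to 50030129), 766 bp separated pieces of 179 and 178 bp, and in the 1277 bp region of chromosome 17 (29238261 to 29239537), 761 bp separated pieces of 157 and 194 bp. In 3 of these 5 regions the gap was the longest uncovered stretch, and in the other 2 an edge was. The widest gaps after these 3 measured 739 bp, in the region on chromosome 9 from 40616718 to 40618440, and 711 bp, in that on chromosome 5 from 113519086 to 113520537.

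At the high end, little apart from the break was uncovered. A 968 bp control region of chromosome 14 (50681613 to 50682580) was covered to both edges by pieces of 804 and 152 bp, with a gap of 12 bp. The region on chromosome 5 from 121098652 to 121099560 (909 bp) had pieces of 475 and 422 bp, also 12 bp apart and also reaching both edges. The other 3 had gaps of 11 bp (chromosome 7, 152391867 to 152392909), 11 bp (chromosome 8, 19782019 to 19782769) and 17 bp (chromosome 8, 19718882 to 19720022). No gap between neighbouring peaks of either list was under 11 bp, so these breaks were at or near the smallest that the lists hold.

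At the width limit of the rule, the widest regions inside it measured 1998, 1998 and 1997 bp, on chromosomes 5, 9 and 4, and were covered over 87.1%, 93.4% and 85.6%. The narrowest divided control peaks outside it measured 2000, 2000 and 2005 bp, on chromosomes 1, 9 and 12, and were covered over 94.0%, 75.9% and 87.3%. Each of these 6 held 2 pieces. At the other limit, 27 of the 2538 regions were under 300 bp wide, and in 19 of them a piece also overlapped a neighbouring control peak. The narrowest, of 151 bp, lay across the ends of 2 gTKO peaks.

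Both the middle and the edges of the divided regions were partly uncovered. Of 613.6 kb that no gTKO peak covered in them, 268.7 kb (43.8%) lay between pieces, 172.3 kb (28.1%) at the start and 172.6 kb (28.1%) at the end. By region, 1104 (43.5%) had more uncovered bases between pieces than at the edges, 1426 (56.2%) had fewer, and 8 had equally many. Both edges were uncovered by at least 1 bp in 1563 regions (61.6%), only the start in 419, only the end in 396, and neither in 160 (6.30%). The uncovered edges were short, with a median of 39 bp at the start and 39 bp at the end, and only 21.0% of regions had at least 50 bp uncovered at both. Neither side of the regions stood out, and in regions of 2 pieces the first piece was the wider one in 1165 and the second in 1183.

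Against control peaks with a single gTKO partner, taken at the same widths, the divided regions had less covered overall but less uncovered at their edges. The median covered share was 80.1% in divided regions and 85.6% in peaks with a single partner, a difference of -5.54 percentage points. In divided regions a mean of 135.9 bp (SD 130.2 over regions) was uncovered at the edges and 105.9 bp (SD 104.4) between pieces. In peaks with a single partner 183.9 bp (SD 150.5) was uncovered, all of it at the edges. The start was uncovered in 78.1% of divided regions against 87.9%, and both edges in 61.6% against 78.3%. By construction, a control peak that kept only 1 of 2 possible pieces counts as having a single partner with a wide bare edge, so the classes differ at their edges in part by how they are defined. Regions covered over more than 90% were fewer among the divided ones, 18.4% against 35.2%, while those covered under 50% were 4.41% against 4.98%.

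Along the region, the divided regions were covered least often at their ends, and fell short of peaks with a single partner over a broad middle. Each region was cut into 20 parts of equal length, and the share of regions with a gTKO peak at the centre of each part was counted. At the outermost parts, 41.1% and 40.3% of the divided regions were covered, against 28.5% and 28.6% of the peaks with a single partner. In the part just past the middle, 81.0% of the divided regions were covered, against 98.1%, a difference of -17.1 percentage points. The rule puts a gap inside each divided region and none inside a peak with a single partner, so lower coverage there was fixed beforehand. Coverage of the divided regions was highest on either side of the middle, at 85.9% and 86.4%. Gap centres fell in the central 20% of the width in 826 of 2746 gaps (30.1%), in the 20% on either side of it in 712 and 718, and in the outermost 20% in 250 and 240. No piece is under 150 bp unless it reaches past the region, so a gap cannot readily lie near an edge.

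**Figure D3:**
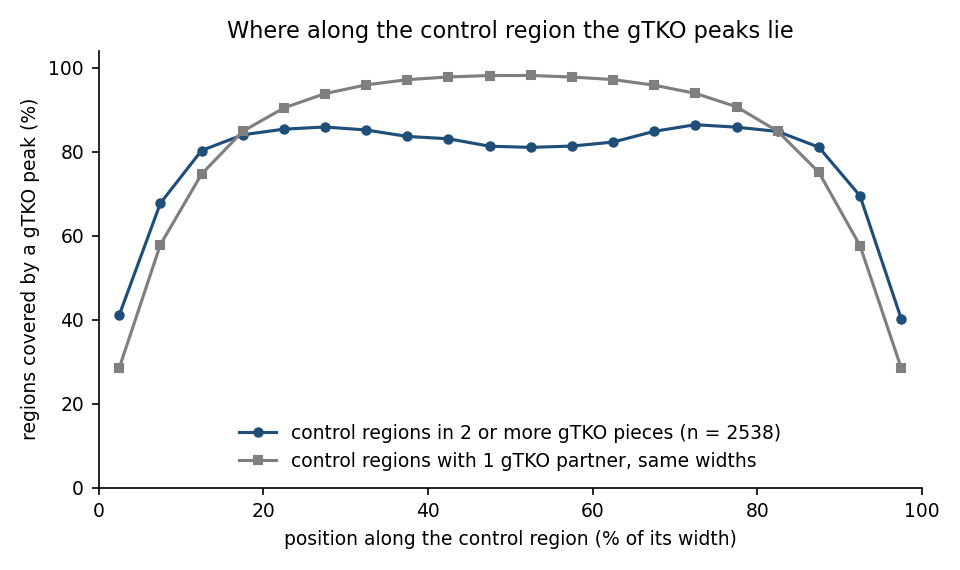
Share of control regions covered by a gTKO peak (%) against position along the region (% of its width), for the 2538 divided regions (blue) and for control peaks with 1 gTKO partner weighted to the same widths (grey). The divided regions are covered more often at the edges (41.1% against 28.5%) and less often in the middle (81.0% against 98.1%). The rule itself puts a gap inside each divided region and none inside a peak with a single partner.

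The gaps between pieces were mostly short. The 2746 gaps had a median of 70 bp (quartiles 30 and 129 bp), and 393 (14.3%) were 11 to 19 bp wide. Gaps of 20 to 49 bp numbered 665, those of 50 to 99 bp 704 and those of 100 to 149 bp 447. Gaps of at least 150 bp, about the length of DNA wrapped around a nucleosome, numbered 537 (19.6%), and 129 were 300 bp or wider. In bins of 10 bp, the narrowest gaps were the most frequent. The pieces were often unequal: in 1314 of the 2349 regions with 2 pieces (55.9%) the wider piece was at least 2 times the narrower, and in 414 (17.6%) at least 5 times. In 1141 regions (45.0%) the narrowest gTKO peak involved was under 200 bp wide, and in 165 (6.50%) it was exactly 150 bp, the smallest width in either list. With gTKO peaks under 200 bp left out, 1497 divided regions remained by the same rule, and with those under 300 bp left out, 654.

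**Figure D4:**
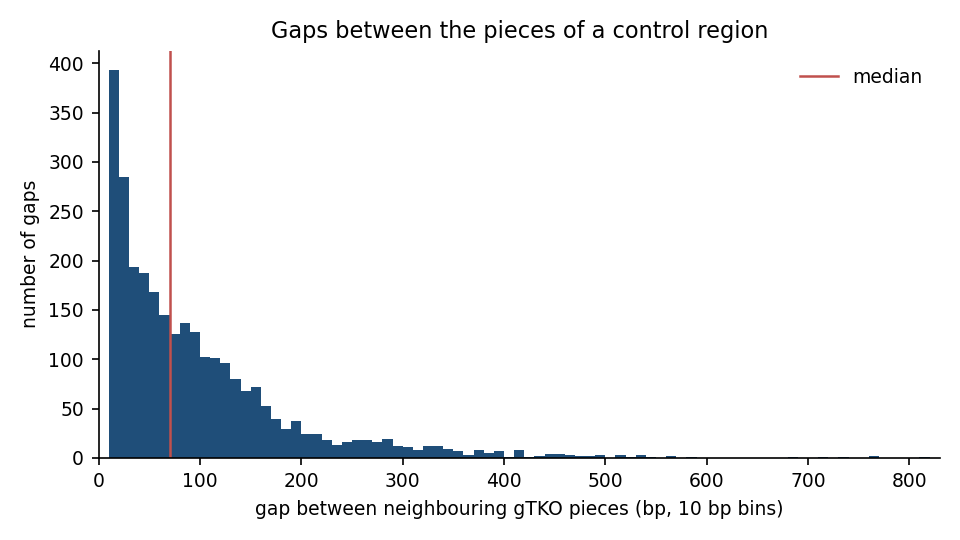
Number of gaps between neighbouring gTKO pieces of a control region, by gap width in bins of 10 bp, for all 2746 gaps, with the median of 70 bp as a red line. The first bin, which holds gaps of 11 to 19 bp, is the highest with 393 gaps, and the numbers fall towards 820 bp.

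Divided regions stood in more crowded stretches of the control list than peaks of the same width with a single partner. The distance between control peaks is not used by the rule. Another control peak lay within 1 kb of 1046 divided regions (41.2%, 95% interval 39.3 to 43.2%), against 29.5% at the same widths. The difference of 11.7 percentage points was 10.8 within 500 bp and 11.5 within 5 kb. Leaving out regions whose pieces also overlap another control peak, in both classes, gave 8.57 points. A control peak with a gTKO partner lay within 1 kb of 31.8% of divided regions against 21.2%, and one without a partner within 1 kb of 16.4% against 12.5%. Control peaks of 2000 bp or more lay within 10 kb of 7.33% of divided regions (6.34 to 8.41%) against 3.95%. The median distance from a divided region to the nearest other one was 130.1 kb, and 129 (5.08%) had another within 1 kb. These values were not set against other control peaks.

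Chromosome X had the highest share of divided control peaks. Of its 936 control peaks with a gTKO partner, 102 (10.9%, 95% interval 8.97 to 13.1%) were divided, against 2436 of 39895 (6.11%, 5.87 to 6.35%) on chromosomes 1 to 19. The lower end of this interval lay above the upper end of that of every other chromosome, the nearest being chromosome 4 at 7.40% (6.46 to 8.43%). The lowest share was 4.79% (3.92 to 5.79%) on chromosome 10. From the widths of its peaks and the shares over all chromosomes, 57.0 divided regions would be counted on X, and the observed number was 1.79 times that. For the other chromosomes the observed number was 0.819 to 1.19 times that from widths. With gTKO peaks less than 150 bp apart joined, the share on X was 1.50 times that on the autosomes, with an interval of 0.893 to 2.36 that includes 1.

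**Figure D5:**
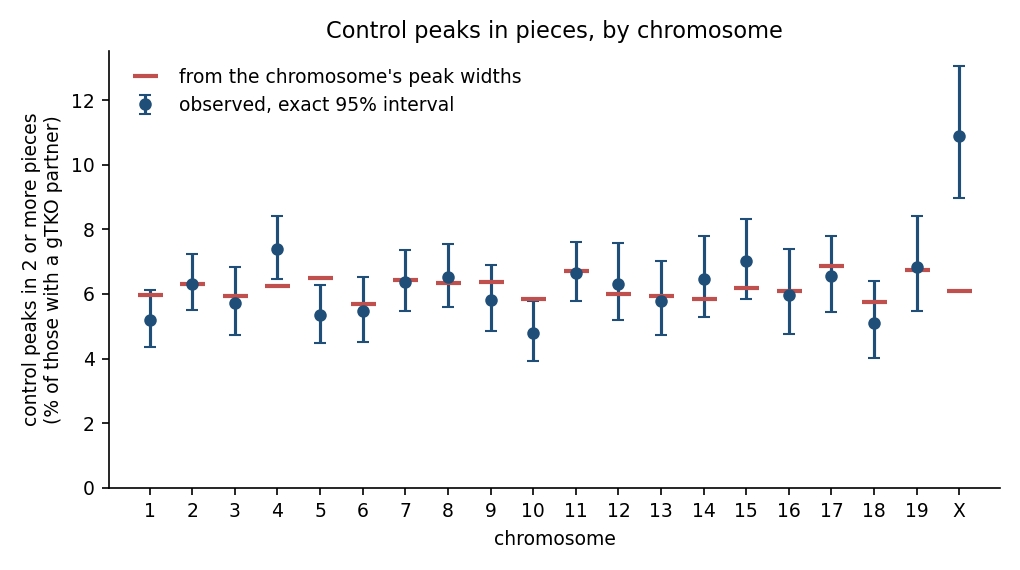
Control peaks in 2 or more gTKO pieces (% of those with a gTKO partner) by chromosome, with exact 95% intervals (blue), and the share that the widths of the chromosome's peaks would give (red bars). Chromosome X stands at 10.9% against 6.08% from widths, while the others lie between 4.79% and 7.40%.

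The share on chromosome X was above that of the autosomes in each of 4 width classes, and was not confined to a single part of the chromosome. At 500 to 999 bp, 48 of 345 peaks on X (13.9%, 95% interval 10.4 to 18.0%) were divided against 7.48% on the autosomes, and at 1000 to 1499 bp 24.2% (17.0 to 32.7%) against 14.7%. At 150 to 499 bp the shares were 2.51% (1.26 to 4.45%) and 0.868%, and at 1500 to 1999 bp 44.8% (26.4 to 64.3%) of only 29 peaks and 27.3%, where the intervals overlapped. In 9 stretches of 20 Mb along X the share ranged from 9.16% (95% interval 4.82 to 15.5%) to 18.5% (9.92 to 30.0%), each from 65 to 178 peaks. Most of these stretches had intervals that included the 6.11% of the autosomes. Within them, some windows of 1 Mb stood out. Between 166 and 167 Mb lay 8 divided regions, where widths would give 1.80, of 9 in the stretch from 160 Mb. There were 7 between 11 and 12 Mb (against 2.64 from widths) and 6 between 92 and 93 Mb (against 1.19). Divided regions on X were narrower than those on the autosomes, with a median width of 890 against 1080 bp, and had a median covered share of 77.4% against 80.2%. These shares were not matched for width. Among divided regions of all chromosomes the median covered share was 77.8% at 750 to 999 bp and 79.7% at 1000 to 1249 bp. Coverage was also lower on X in control peaks with a single partner, at a median of 81.9% against 84.8%, without matching for width. Their widest gaps had a median of 71 bp, against 74 bp.

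The other direction and the spacing of peaks were also taken on X. In the gTKO list 24 of 1030 peaks on X (2.33%, 95% interval 1.50 to 3.45%) lay in several control pieces, against 1.13% (1.04 to 1.24%) on the autosomes together. Some autosomes had intervals that overlapped that of X, among them chromosome 4 at 1.99% (1.53 to 2.56%), chromosome 8 at 1.85% and chromosome 1 at 1.59%. Neighbouring peaks less than 300 bp apart numbered 18.4 per 100 control peaks on X and 12.0 on the autosomes, and 16.9 and 10.9 per 100 gTKO peaks. Of such gTKO pairs, 56.5% (49.2 to 63.7%) were joined by a control peak on X and 59.6% (58.3 to 61.0%) on the autosomes. The labels used here do not state the sex of the pups, and its part in the values on X was not tested.

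Along the genome, a few windows held many divided regions. Over 2269 windows of 1 Mb that held a control peak with a partner, 1106 had no divided region, 540 had 1, and 100 had 5 or more, which together held 642 (25.3%) of all. These 100 windows were picked by that count, and their share of all control peaks with a partner was not taken. A window can hold many through the number and widths of its peaks, as on chromosome 10 between 79 and 80 Mb (8, against 8.52 from widths). The window on chromosome 4 between 146 and 147 Mb had the most, 15 of 144 control peaks with a partner, where their widths would give 3.19. The window beside it, between 145 and 146 Mb, had 10 of 102, where widths would give 1.55. The next were chromosome 1 between 90 and 91 Mb (11, against 3.58 from widths), chromosome 4 between 154 and 155 Mb (11, against 5.34) and 3 further windows with 10, on chromosome 4 between 62 and 63 Mb (against 3.17), chromosome 1 from 173 Mb (against 5.36) and chromosome 11 between 120 and 121 Mb (against 7.97). Without the pair of neighbouring windows, the share on chromosome 4 was 7.14% (6.17 to 8.20%).

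In the window with the most divided regions, the 2 lists broke at different places. In 10 of its 15 regions a piece also overlapped a neighbouring control peak, against 6.15% of all divided regions. In the same window 23 gTKO peaks of 140 with a partner lay in several control pieces, more than the 15 in the direction described here. The regions were 151 to 1879 bp wide with a median of 694 bp, and were covered over 66.2 to 98.2%. A run of them followed each other closely: from 146709539 to 146710682 (1144 bp, 2 pieces), from 146710789 to 146711884 (1096 bp, 3 pieces), from 146712025 to 146712768 (744 bp, 3 pieces) and from 146714062 to 146714648 (587 bp, 2 pieces). Another run of 3 lay from 146799371 to 146800869, from 146802214 to 146803288 and from 146803604 to 146805482, each with 2 pieces. The remaining 8 had 2 pieces each.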

How the data were processed

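The deposited files used were 2 peak lists of the authors, 1 per genotype, with 3 columns (sequence name, start, end) and no score, fold, p-value or summit, and the 3 ATAC-seq libraries of each genotype share a list, per the labels. Tools named for the series include Bowtie2, Picard, MACS2, bedtools and HOMER, and the build is mm9, per the submitters' processing notes. The sources used here give no calling threshold, filter or read depth, and do not say whether reads were pooled. The RNA-seq libraries were not analysed here. Starts are printed counted from 1.

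The regions and lists were chosen with earlier results of these data known. Peaks were compared as deposited, with an overlap of at least 1 bp, and pieces were clipped to the control peak for coverage. Peaks with a single partner were weighted so that each width class of 50 bp counted as among the divided regions. The number of divided regions expected from widths used the share divided in each such class over 20 chromosomes. Shares have exact 95% Clopper-Pearson intervals. Named regions were the 10 with the most pieces, the 5 with the lowest and highest coverage, the 5 with the widest gap, those of the fullest 1 Mb window, and the 3 on either side of the width limit, ties going to the wider region. Alternatives varied the overlap, the smallest peak, the joining of near peaks, the width limit, the sequences, width classes, distances and windows. The scripts were tested on simulated data made from the 57261 control peaks of these chromosomes. Each peak was trimmed at both ends, and 200 of the wider ones were given a known gap of under 200 bp. All 200 planted breaks were recovered with the right gap. No made piece reached past its control peak, so pieces that overlap a neighbouring peak were not tested. Software was scipy 1.17.1, pandas 2.3.3, numpy 2.4.6 and matplotlib 3.10.9 under Python 3.11.15. The planned comparison of base composition was not run, as no mm9 sequence was used here.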

Additional observations from a re-analysis of the deposited data

Results flagged for a closer look

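Divided control peaks were also found on the sequences left out above. On chromosome Y and the unplaced sequences, 46 of 491 control peaks under 2000 bp with a gTKO partner lay in 2 or more pieces. Of these, 20 (of 187 with a partner) lay on unlocalised contigs of chromosome 1 and 16 (of 156) on those of chromosome 8. Another 2 (of 11) lay on those of chromosome 4, 8 (of 90) on contigs of unknown chromosome, and 0 on chromosome Y, which had 6 peaks with a partner. The count was flagged for passing a limit of 3. Peaks were divided elsewhere too, so passing that limit says nothing particular about these sequences. With them included, 6.25% of 41322 control peaks with a partner were divided, against 6.22% of 40831 without them.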

How the results depend on the processing

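Of 105 values under alternatives, 54 stayed within their interval (or within 1.5 times for counts), 50 moved and 1 reversed. The reversed value is the ratio of divided control to divided gTKO peaks (4.92), which was 0.510 with gTKO peaks less than 150 bp apart joined in that list alone, a step that removes gaps and widens peaks on one side. That setting gave 529 divided regions, 98.5% of them in 2 pieces, a median coverage of 68.5%, 62.6% of uncovered bases between pieces, and a difference of -18.8 points from peaks with a single partner. Joining in both lists gave 1039 regions, 97.7%, 68.1%, 66.1%, -18.2 points and a ratio of 9.53, and joining gTKO peaks less than 50 bp apart gave 1599 regions, 94.7%, 76.1%, 51.4%, -10.1 points and 2.67. Requiring whole pieces inside gave 1674 regions, a coverage of 76.8%, 37.1% between pieces, -6.24 points and a ratio of 26.2. The ratio was 6.34 with at least 50 bp of a piece inside, 8.86 with at least 50% of it, and 6.65 without regions whose pieces also overlap another region. gTKO peaks of at least 200 bp gave 1497 regions, 95.1% in 2 pieces, a coverage of 81.0%, -4.58 points and a ratio of 3.06, and those of at least 300 bp gave 654, 97.9%, 82.1%, -3.69 points and 1.49. Both settings filter the gTKO list alone. With no width limit, 88.1% were in 2 pieces, coverage was 81.0% and the ratio 5.71. Under 1000 bp there were 1143 regions, 97.9% in 2 pieces, with a coverage of 78.1%, -3.82 points and a ratio of 2.67. Both edges were uncovered by at least 20 bp in 42.0% and by at least 50 bp in 21.0% of regions, against 61.6% for any length. The difference in crowding moved to 8.57 points without regions whose pieces also overlap another region. Shares by chromosome spanned 6.10 points, and 2.61 without chromosome X. Windows with 5 or more divided regions numbered 100, and 54 at 500 kb and 164 at 2 Mb. The share on X over that on the autosomes ranged from 1.48 to 2.25, with an interval that included 1 (0.893 to 2.36) where gTKO peaks less than 150 bp apart were joined, and of 1.03 to 2.07 where they were joined in both lists. Leaving out crossed overlaps, chromosome 4 or chromosome X, and the ratio on X, were added after seeing the data. No paired analysis was possible because the 3 libraries of a genotype share 1 list, and for that reason no replicate could be left out. Depth is unknown.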
